A study of Homo sapiens with 8 samples.

Results

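AP-1 is the collective name of transcription factors that bind DNA as dimers of basic leucine zipper proteins from the FOS, JUN and ATF families. Several of its genes are classical immediate early genes, switched on within minutes by growth factors, cytokines and stress. AP-1 sites often lie beside TEAD sites in the enhancers of epithelial and cancer cells. The genes examined here were the FOS family members FOS, FOSB, FOSL1 and FOSL2, the JUN family members JUN, JUNB and JUND, and ATF3. Occupancy around them was read from ChIP-seq peak lists of HuCCT1, an established human line derived from a cancer of the bile duct. The members were all peaks with a centre within 100 kb of the transcription start of one of the 8 genes, and they numbered 76 of the 51828 peaks in 5 lists. The rule selects peaks by position alone, and the genes were chosen with earlier results of these data known.

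The lists came from libraries precipitated with antibodies to TEAD1, TEAD4, YAP or TAZ (the product of WWTR1), or through the HA tag of HA-YAP5SA, with 1 library each. TEAD1 and TEAD4 are the DNA-binding partners of the Hippo pathway coactivators YAP and TAZ, and YAP5SA is a YAP form in which the serines targeted by LATS kinases are replaced by alanine. All libraries were made from the same cell line. The labels do not say whether the YAP, TAZ and TEAD libraries came from cells that carried the tagged protein. Background libraries titled GFP, IgG and Input were not analysed here. No antibody had a replicate and read depths are unknown, so the results below are descriptions without a test. Intervals are exact 95% binomial intervals that cover only counting error over peaks, or over tiles where stated. Each peak carries the authors' own score, on a scale that is not stated, which was turned into a percentile within its list.

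TEAD1 peaks lay around all of these genes and TEAD4 peaks around most of them. The 76 peaks were 49 of the 38186 TEAD1 peaks, 26 of the 12188 TEAD4 peaks and 1 of the 847 HA-YAP5SA peaks, with 0 of the 454 YAP peaks and 0 of the 153 TAZ peaks. A TEAD1 peak was present at all 8 genes, and a TEAD4 peak at 6 of them. A single gene, FOSB, had an HA-YAP5SA peak in its window. For comparison, the assembled chromosomes were cut into 15037 consecutive tiles of 200 kb, as long as one window. Of these tiles, 68.5% held at least 1 TEAD1 peak, 39.5% at least 1 TEAD4 peak and 5.00% at least 1 HA-YAP5SA peak. A YAP peak was in 0.911% of tiles and a TAZ peak in 0.339%. At the mean number per tile, 8 windows would hold 0.206 YAP and 0.0564 TAZ peaks, so the counts of 0 near the AP-1 genes cannot be told from the background. Windows were centred on a gene and tiles were not, so the tiles are a background for the whole genome and not for other genes.

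**Figure D1:**
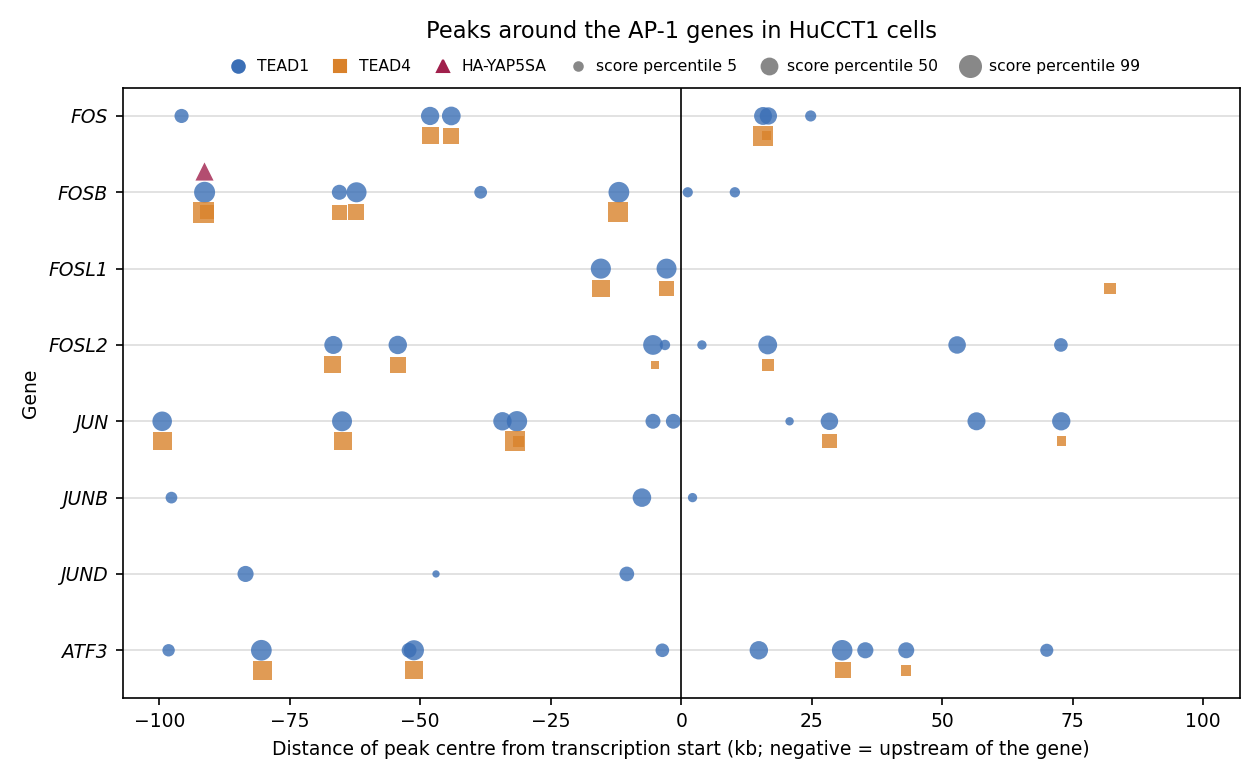
Peaks within 100 kb of the start of each AP-1 gene, by distance along the direction of transcription in kb (circles TEAD1, squares TEAD4, triangle HA-YAP5SA, symbol size by score percentile within the list). TEAD1 peaks appear at all 8 genes, no peak centre falls within 1 kb of a start used here, and the single HA-YAP5SA peak lies 91.5 kb upstream of FOSB.

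The start sites used here lay in stretches without TEAD peaks. None of the 8 genes had a TEAD1 or TEAD4 peak centre within 1 kb of the start used. Distances of peaks from other starts of these genes, such as the downstream promoter of ATF3, were not measured. A TEAD peak at such a start is therefore not excluded. The stretch searched was 16 kb in all, in which 0.49 TEAD1 peaks would lie at the mean density of the windows (3.06 per 100 kb), so an absence is not shown at this number of peaks. No TEAD1 or TEAD4 peak reached the promoter interval of 250 bases before to 50 bases after the start. By any base instead of the centre, 1 gene, FOSB, had a TEAD1 peak within 1 kb. Within 5 kb, 7 TEAD1 peaks lay at 6 genes, and FOS and JUND had none.

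The promoters that held a searched motif are shown because they are the sequence next to these peak-free starts. RefSeq promoters on GRCh38.p14 were at hand for 7 of the 8 genes, with 2 starts for ATF3. FOSL1 had none, so its promoter was not searched. Each promoter spans 300 bases from 250 before the start to 50 after it. These starts were not matched to the hg19 positions used for the peaks. The motif CATTCC, the core bound by TEAD factors, was in 0 of these 8 promoters of 7 genes on either strand, against 14.0% of 34796 promoters of the same length. The AP-1 motif TGACTCA was in 1 of them, FOSL2 (4.96% of all promoters). The cyclic AMP response element TGACGTCA was in 1, JUND (1.84% of all promoters). The sequence TGACATCA, known as the proximal AP-1 site of the JUN promoter, was in that of JUN and in the upstream promoter of ATF3 (2.60% of all promoters). Both strands were searched, and capitals mark the motifs, which do not overlap. A match describes the letters and is not evidence of binding.
FOSL2 promoter (chr2:28392608-28392907, plus strand): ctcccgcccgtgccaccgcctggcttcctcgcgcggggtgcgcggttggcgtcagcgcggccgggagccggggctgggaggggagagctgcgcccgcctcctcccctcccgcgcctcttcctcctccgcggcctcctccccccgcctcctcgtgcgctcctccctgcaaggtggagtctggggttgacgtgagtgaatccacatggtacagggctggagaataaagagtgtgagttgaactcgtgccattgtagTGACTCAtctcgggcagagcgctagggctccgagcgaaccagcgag
JUN promoter (chr1:58783998-58784297, minus strand): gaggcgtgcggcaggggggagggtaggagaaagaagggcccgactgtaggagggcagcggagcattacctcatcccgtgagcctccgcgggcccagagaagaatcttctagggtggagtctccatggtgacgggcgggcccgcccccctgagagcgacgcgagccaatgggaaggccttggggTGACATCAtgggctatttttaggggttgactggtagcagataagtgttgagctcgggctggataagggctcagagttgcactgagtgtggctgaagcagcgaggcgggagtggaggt
JUND promoter (chr19:18281573-18281872, minus strand): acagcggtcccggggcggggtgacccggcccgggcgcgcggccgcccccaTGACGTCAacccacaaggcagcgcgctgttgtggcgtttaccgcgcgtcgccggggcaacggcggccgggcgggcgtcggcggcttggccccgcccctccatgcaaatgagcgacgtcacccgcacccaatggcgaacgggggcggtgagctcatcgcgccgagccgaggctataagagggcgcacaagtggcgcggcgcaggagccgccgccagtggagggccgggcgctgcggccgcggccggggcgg
ATF3 upstream promoter (chr1:212565157-212565456, plus strand): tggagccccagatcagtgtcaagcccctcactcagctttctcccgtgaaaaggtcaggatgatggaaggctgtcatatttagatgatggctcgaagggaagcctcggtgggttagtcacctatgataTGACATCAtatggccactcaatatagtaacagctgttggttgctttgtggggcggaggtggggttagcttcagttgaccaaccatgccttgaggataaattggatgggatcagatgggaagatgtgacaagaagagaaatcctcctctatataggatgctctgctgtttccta
The TGACTCA of FOSL2 began 4 bases after the start, while the motifs of JUN, ATF3 and JUND began 67, 123 and 200 bases before it.

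Most TEAD1 peaks close to the starts had low scores. The 7 peaks within 5 kb had a median percentile of 14.7, and 6 of them were below the 50th percentile of the TEAD1 list. The other 42 peaks, from 5 to 100 kb, had a median percentile of 69.3, and 28 of them were above the 50th. A TEAD4 peak overlapped 1 of the 7 near peaks (14.3%, interval 0.361 to 57.9%) and 22 of the 42 distant ones (52.4%, 36.4 to 68.0%), against 30.6% of the whole TEAD1 list. These intervals overlap, and in the list 5.98% of TEAD1 peaks up to the 50th percentile, where 6 of the 7 near peaks stood, overlapped TEAD4. Peaks within 5 kb of the starts of other genes were not analysed here. Per 100 kb of sequence there were 10.9 TEAD1 peaks from 1 to 5 kb, 4.06 from 5 to 25 kb, 2.50 from 25 to 50 kb and 2.38 from 50 to 100 kb. TEAD1 peaks were thus densest just outside the first kb, where most scores were low. On the upstream side lay 30 of the 49 TEAD1 peaks, 18 of the 26 TEAD4 peaks and the single HA-YAP5SA peak. TEAD1 peaks were evenly split at FOS, FOSL2 and ATF3, and more lay upstream at FOSB, FOSL1, JUN, JUNB and JUND. A difference between the sides was not tested.

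FOS encodes the founding member of the FOS family, a protein that needs a partner such as a JUN protein to bind DNA. Its start was taken at position 75745481 of chromosome 14, and the next genes downstream are JDP2 and BATF, which also encode basic leucine zipper proteins. Upstream, its TEAD1 peaks had scores of 140, 305 and 346 at 95.7, 48.1 and 44.0 kb. Downstream, they had scores of 277, 241 and 103 at 15.7, 16.7 and 24.8 kb. The nearest TEAD1 peak was farther from the start than at any of the other 7 genes. TEAD4 scored 187 and 173 at the upstream pair. Its strongest FOS peak, with a score of 367 (chr14:75760759-75761442, percentile 85.2), lay 15.6 kb downstream, next to a weaker one with a score of 87.5 at 16.4 kb. These lay on adjoining TEAD1 peaks (chr14:75760778-75761537 and chr14:75761572-75762781). The 4 TEAD1 peaks with TEAD4 were at percentile 63.4 or higher, and the 2 without were at 37.9 or lower.

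FOSB, a FOS paralogue whose truncated product accumulates in chronically stimulated neurons, had the highest-scoring sites of the 8 genes and the HA-YAP5SA peak. The start was position 45971253 of chromosome 19. Its 7 TEAD1 peaks ranged in score from 95.6 to 1949. The highest lay 91.3 kb upstream (chr19:45879286-45880610) and ranked 139 of 38186, a percentile of 99.6. On it lay a TEAD4 peak with a score of 1337 (chr19:45879547-45880037), which ranked 58 of 12188. The HA-YAP5SA peak (chr19:45879599-45879908) had a score of 158, ranked 246 of 847, and had its centre 38.5 bp from that of the TEAD4 peak and 194.5 bp from that of the TEAD1 peak. A second, weaker TEAD4 peak with a score of 134 lay 595.5 bp from the HA-YAP5SA centre, on the same TEAD1 peak. Of all HA-YAP5SA peaks, 95.2% overlapped TEAD1, 92.4% TEAD4, 6.49% YAP and 0.118% TAZ, and this one overlapped TEAD1 and TEAD4 but neither YAP nor TAZ. The site had the highest TEAD1 and the highest TEAD4 score around the 8 genes. It was not assigned to a gene. The genes next upstream of FOSB are ERCC1 and POLR1G, but those nearest the site itself, 91.3 kb away, were not determined.

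Closer to FOSB, a TEAD1 peak with a score of 1121 lay 11.9 kb upstream (chr19:45958973-45959656, percentile 97.2), with TEAD4 at 439 (percentile 89.3) and no HA-YAP5SA. Between these sites, TEAD1 peaks with scores of 160, 616 and 120 lay 65.5, 62.2 and 38.4 kb upstream, and TEAD4 was present at the first 2 with scores of 143 and 172. At 1.25 and 10.3 kb downstream TEAD1 scored 95.6 and 96.6, without TEAD4. The near peak (chr19:45972245-45972768) was the closest TEAD1 peak to a start among the 8 genes, but it ranked 33093 of 38186. The FOSB window thus had its high scores upstream and low scores downstream.

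FOSL1 encodes FRA-1, a FOS protein without a transactivation domain that is often abundant in invasive carcinoma cells. It had the fewest TEAD1 peaks, 2, and both were strong. The start was position 65667997 of chromosome 11. The TEAD1 peak 2.81 kb upstream (chr11:65670418-65671197) had a score of 589, and that 15.4 kb upstream (chr11:65683083-65683699) a score of 636, percentiles of 88.8 and 90.2. TEAD4 had scores of 165 and 222 at the same places, with the near centres 0.5 bp apart. This was the only one of the 7 TEAD1 peaks within 5 kb of a start that overlapped TEAD4 or lay above the 50th percentile. A further TEAD4 peak, 82.2 kb downstream with a score of 104 (chr11:65585619-65586019), was the single one of the 26 without TEAD1.

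FOSL2 encodes FRA-2, the second FOS protein that lacks a transactivation domain. Its start was position 28615779 of chromosome 2, and 8 TEAD1 peaks lay around it. Upstream they had scores of 289, 317, 526 and 97.4 at 66.6, 54.3, 5.40 and 3.12 kb. Downstream the scores were 90.2, 363, 253 and 133 at 3.97, 16.6, 52.9 and 72.7 kb. The highest, 5.40 kb upstream (chr2:28609789-28610974, percentile 86.6), carried the lowest-scoring TEAD4 peak of the 26, with a score of 82.6 and a percentile of 2.75. Other TEAD4 peaks had scores of 194, 170 and 110 at 66.7 and 54.3 kb upstream and 16.6 kb downstream. Among the 4 TEAD1 peaks of FOSL2 with TEAD4, the order of scores therefore differed between the factors, and the TEAD1 maximum had the TEAD4 minimum. The TEAD1 peaks without a listed TEAD4 peak all scored below that maximum and were not part of this order.

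JUN encodes c-Jun, the prototype AP-1 subunit, which can pair with itself, with FOS proteins and with ATF proteins. With 10 TEAD1 and 6 TEAD4 peaks its window was the richest, ATF3 having as many TEAD1 peaks. The start was position 59249785 of chromosome 1. Upstream, TEAD1 had scores of 475, 579, 316, 789, 157 and 156 at 99.4, 65.0, 34.2, 31.5, 5.41 and 1.51 kb. Downstream, the scores were 85.2, 250, 284 and 307 at 20.8, 28.4, 56.6 and 72.8 kb. The highest (chr1:59280569-59281940, percentile 93.5) was 1372 bp wide, the widest TEAD1 peak of the 49. It held 2 TEAD4 peaks, with scores of 423 (chr1:59281347-59281727, percentile 88.6) and 101. TEAD4 scored 243 and 230 at the upstream sites at 99.4 and 64.7 kb, and 136 and 89.4 at the downstream sites at 28.4 and 72.8 kb. The nearest TEAD4 centre lay 28.4 kb from the JUN start. The TEAD1 peaks at 5.41 and 1.51 kb (chr1:59250800-59251792 for the nearer) stood at percentiles of 43.9 and 43.4, without TEAD4.

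JUNB and JUND, whose products are weaker activators than c-Jun and can oppose it, had few and mostly low peaks. At JUNB (start at position 12902310 of chromosome 19) TEAD1 had scores of 108 and 332 at 97.7 and 7.53 kb upstream, and 89.9 at 2.17 kb downstream (chr19:12904275-12904684). The middle one (chr19:12894432-12895138) stood at a percentile of 74.9. At JUND (start at position 18392466 of chromosome 19) scores were 190, 80.5 and 151 at 83.5, 47.0 and 10.4 kb upstream, with the nearest at chr19:18402603-18403163 and the highest at chr19:18475630-18476223. None of these 6 TEAD1 peaks overlapped TEAD4, and the nearest TEAD4 centre lay 211 kb from the JUNB start and 246 kb from the JUND start. The nearest HA-YAP5SA peaks were 10361 and 9364 kb away. Of all 200 kb tiles, 60.5% likewise held no TEAD4 peak, so windows without one are common.

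ATF3 encodes a stress-induced factor of the ATF family that forms dimers with JUN proteins and can repress transcription. Its start was taken at position 212738676 of chromosome 1, the upstream one of its alternative promoters. Distances from the downstream promoter were not measured. Upstream, TEAD1 had scores of 116, 1043, 155, 652 and 132 at 98.2, 80.4, 52.1, 51.2 and 3.61 kb. Downstream, the scores were 317, 892, 191, 186 and 124 at 14.9, 30.8, 35.3, 43.1 and 70.0 kb. Among these, 3 were above the 90th percentile, at chr1:212657748-212658742, chr1:212687143-212687789 and chr1:212768950-212770075, against 2 at FOSB, 1 at FOSL1 and 1 at JUN. TEAD4 had scores of 302 (chr1:212658160-212658679), 232, 155 and 99.7 at 80.3 and 51.1 kb upstream and at 31.0 and 43.1 kb downstream. The peak nearest the start (chr1:212734739-212735384) was at the 34.3 percentile and had no TEAD4. No HA-YAP5SA peak was listed in the ATF3 window, and the nearest was 1986 kb away.

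**Figure D2:**
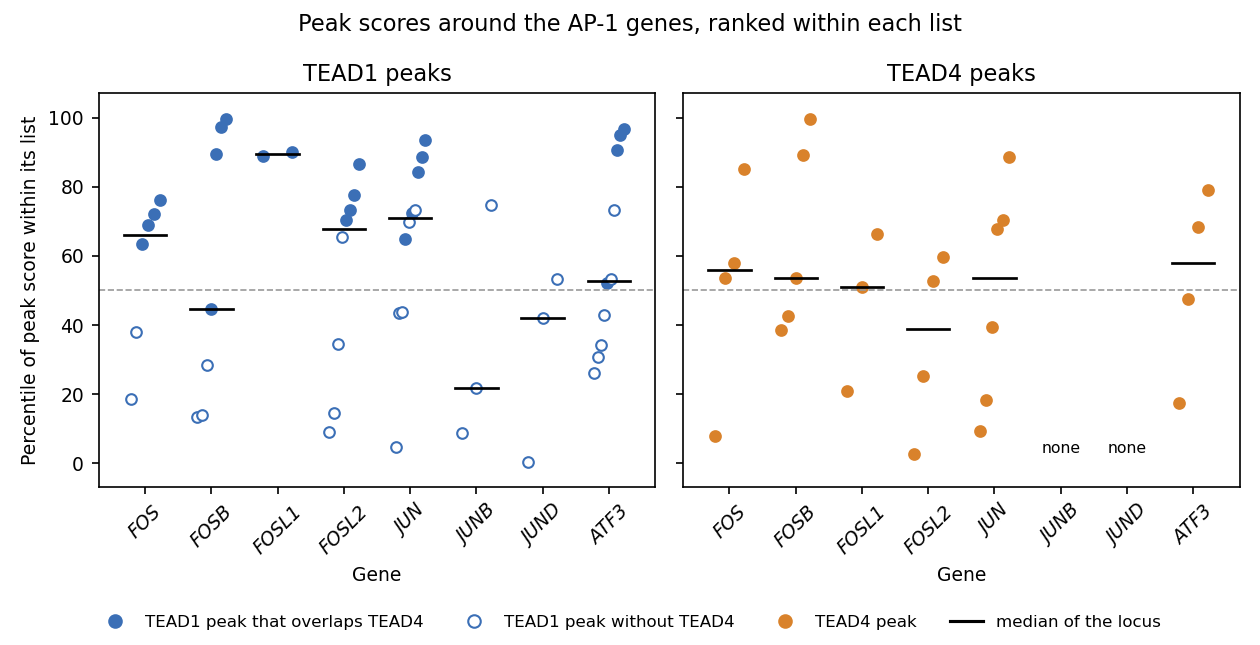
Percentile of the peak score within its own list for each TEAD1 peak (left) and TEAD4 peak (right) by gene, with the median of each locus as a bar and the list median as a dashed line. Filled TEAD1 points overlap TEAD4 and sit mostly high, open points sit mostly low, and JUNB and JUND have open points only and no TEAD4 peak.

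The number of TEAD1 peaks ranged from 2 to 10 between the genes, and for 5 of them it lay in the upper range of the genome's tiles. Of the 15037 tiles, 3.26% held at least 10 TEAD1 peaks, as JUN and ATF3 did, 7.10% at least 8, as FOSL2 did, 10.1% at least 7, as FOSB did, and 14.3% at least 6, as FOS did. The 3 peaks of JUNB and of JUND were reached by 38.8% of tiles and the 2 of FOSL1 by 51.5%. Windows held a mean of 6.13 TEAD1 peaks, against 2.54 in tiles, and a median of 6.5 against 2. For TEAD4 the mean was 3.25 peaks in windows, against 0.809 in tiles. The 6 TEAD4 peaks of JUN were reached by 1.51% of tiles, the 5 of FOSB by 2.67%, the 4 of FOS, FOSL2 and ATF3 by 5.27% and the 3 of FOSL1 by 10.5%. Among tiles with at least 1 TEAD1 peak the share with as many as JUN or ATF3 was 4.75%, and the share with as many as FOSL1 was 75.2%.

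**Figure D3:**
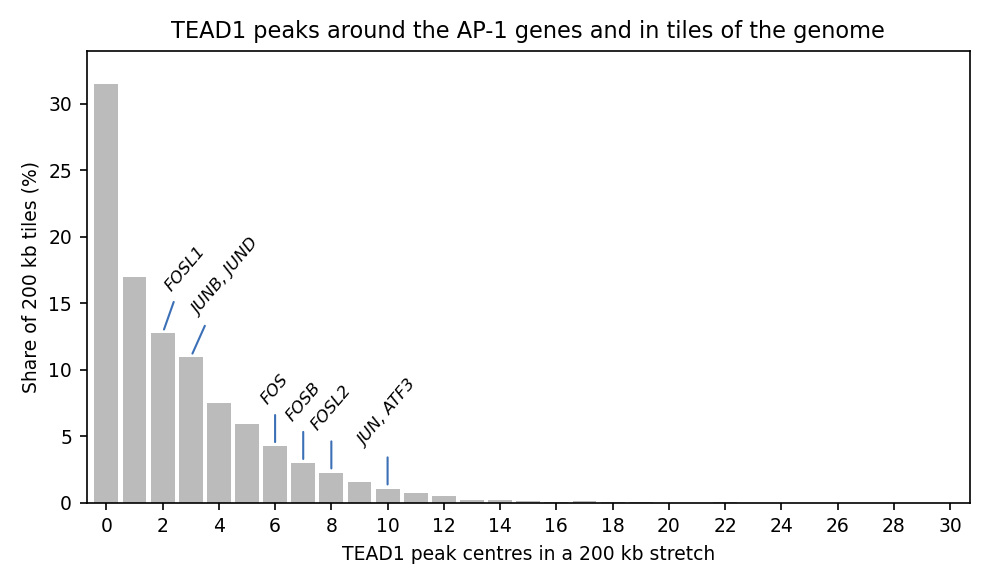
Share of 200 kb tiles of the genome (y axis, %) by their number of TEAD1 peak centres (x axis), with each AP-1 gene marked at the number in its own 200 kb window. JUN and ATF3 with 10 peaks lie in the thin tail, where 3.26% of tiles have as many, while FOSL1, JUNB and JUND lie among common values.

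TEAD4 was present at 23 of the 49 TEAD1 peaks around the AP-1 genes (46.9%, interval 32.5 to 61.7%), against 30.6% of the whole TEAD1 list, a share below that interval. Leaving out FOS, FOSB, FOSL1 or JUN brought the list's share inside the interval, while leaving out FOSL2, JUNB, JUND or ATF3 did not. The list's share was also inside it for windows of 50 kb each side (25.5 to 62.6%), but not for 200 kb (32.3 to 53.6%). Peaks of 1 gene are neighbours and may not be independent. Counts were 14 of 23 at the FOS family genes (60.9%, 38.5 to 80.3%), 5 of 16 at the JUN family genes (31.3%, 11.0 to 58.7%) and 4 of 10 at ATF3 (40.0%, 12.2 to 73.8%). These intervals overlap. Since TEAD4 accompanies high TEAD1 scores throughout the list, the share was also read within bands of the TEAD1 score. Up to the 50th percentile, 1 of 20 peaks around the AP-1 genes had TEAD4, against 5.98% of the list. From the 50th to the 75th it was 8 of 15 (53.3%, 26.6 to 78.7%), against 28.6%. From the 75th to the 90th it was 7 of 7, against 71.5%, and above the 90th 7 of 7, against 97.0%. The list's share fell inside the interval of the AP-1 peaks in each band.

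**Figure D4:**
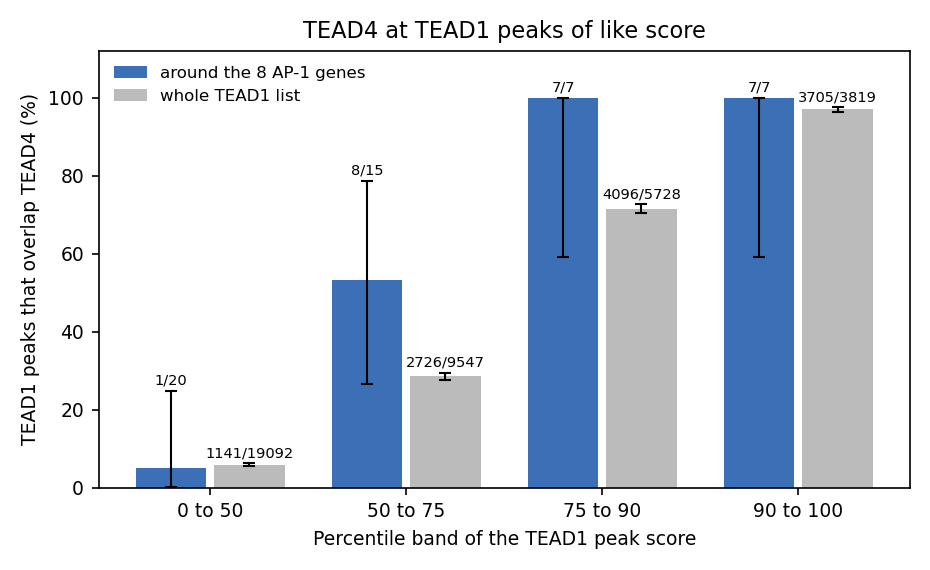
Share of TEAD1 peaks that overlap a TEAD4 peak (y axis, %) in bands of the TEAD1 score percentile (x axis), for the 49 peaks around the AP-1 genes and the whole TEAD1 list, with exact 95% intervals and counts above the bars. In both the share climbs with the score, reaching 7 of 7 around the AP-1 genes and 97.0% of the list in the highest band.

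Scores around the AP-1 genes were spread over most of each list. The 49 TEAD1 peaks had a median percentile of 64.9 (interval of the median 43.9 to 72.4) and a median score of 250, against 177 in the whole list. Above the 50th percentile lay 29 of them, and above the 90th lay 7, against 10.0% of the list. The 26 TEAD4 peaks had a median percentile of 53.1 (39.4 to 66.3), and 1 of them, at FOSB, was above the 90th. TEAD1 peaks with TEAD4 had scores from 160 to 1949 with a median of 475, and those without had scores from 80.5 to 332 with a median of 132. Both intervals of the median hold the 50th percentile. Widths had a median of 646 bp for TEAD1, against 552 bp in the whole list, and of 402.5 bp for TEAD4, against 352 bp. Where TEAD4 lay on TEAD1, at 25 of 26 TEAD4 peaks (96.2%, 80.4 to 99.9%, against 97.1% of the TEAD4 list), the median distance between centres was 67.5 bp, with a range of 0.5 to 401 bp, against a median of 44.0 bp in the whole list (interquartile range 20.5 to 80 bp, 11835 TEAD4 peaks).

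HA-YAP5SA was detected at 1 of the 49 TEAD1 peaks (2.04%, interval 0.0517 to 10.9%), against 2.06% of the list, and at 1 of the 26 TEAD4 peaks (3.85%, 0.0973 to 19.6%), against 6.28%. Among TEAD1 peaks above the 90th percentile it was at 1 of 7, against 17.3% of such peaks in the list. Without FOSB the number was 0 of 42 TEAD1 peaks and 0 of 21 TEAD4 peaks. The 6 strong TEAD1 peaks without it were 1 at FOSB, 1 at FOSL1, 1 at JUN and 3 at ATF3. YAP lay on 0 of the 49 TEAD1 peaks, against 0.210% of the list, and on 0 of the 26 TEAD4 peaks, against 0.624%. With a count of 0 read as allowing 3, shares of up to 6.12% and 11.5% are allowed. The exact intervals reach 7.25% and 13.2%. At these numbers the absence of YAP could not be told from the background. TAZ met 0 of the 49 TEAD1 peaks, against 0.00% of the list, and 0 of the 26 TEAD4 peaks, against 0.0492%. The nearest YAP peak was between 2299 kb (ATF3) and 16451 kb (FOSL2) from the start, and the nearest TAZ peak between 4585 kb (JUN) and 91269 kb (ATF3).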

How the data were processed

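Chromatin of HuCCT1 cells was cross-linked with formaldehyde, sonicated, precipitated and sequenced, per the labels' protocols. Bowtie2 and hg19 are named in the submitters' processing notes. Peak names begin with MACS, per the deposited lists. Of the caller, the sources used here give neither version, threshold nor control. The score in each deposited list is the authors' own value on an unstated scale, so it was compared only within a list. A list's length can reflect depth, antibody, control and threshold together.

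Start sites were the hg19 positions set for the 8 genes. Peaks were counted by their centres, and peaks shared at least 1 bp. Starts of lists without a header were raised by 1. Distances follow the direction of transcription. Tiles ran from the first to the last TEAD1 peak of each assembled chromosome. A count of 0 was read as allowing 3. Samples were grouped by title. All 8 genes are described, with every peak in their windows. Neighbouring genes are protein-coding genes in the order of GRCh38.p14 (RefSeq). Genes and lists were chosen with earlier results of these data known. Overlap, window and rank functions were tested on simulated peaks, while tile counts were required to match in their total only. Sequences of peaks were not analysed here, since no hg19 genome was used. Alternatives were other windows, overlaps, score thresholds and tiles. The software was Python 3.11.15 with SciPy 1.17.1, pandas 2.3.3, NumPy 2.4.6 and matplotlib 3.10.9.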

Additional observations from a re-analysis of the deposited data

How the results depend on the processing

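Counts were held to a limit of 1.5 times, and shares and medians to the 95% interval of the value reported. Of 102 recalculated values, 84 stayed within these limits and 18 did not. Leaving out 1 gene could not take the TEAD1 or TEAD4 count past its limit, as no gene held more than 10 or 6 peaks. The number that stayed is therefore not a measure of robustness. Windows of 50 kb each side held 30 TEAD1, 14 TEAD4 and 0 HA-YAP5SA peaks, so that 0% of TEAD1 and 0% of TEAD4 peaks had HA-YAP5SA. Windows of 200 kb held 89, 45 and 3. Without peaks under the median score of their list, 29 TEAD1 and 15 TEAD4 peaks were left, and the median percentiles were 74.9 and 67.9, which follows from the threshold. A TEAD1 peak lay within 1 kb of the start at 1 gene by any base and within 5 kb by its centre at 6. Tiles with at least 1 TEAD1 peak raised the median share of tiles with as many peaks as a gene to 17.8%, against 12.2% over all tiles. The interval used as its limit, 11.7 to 12.7%, covers counting error over tiles only. It does not cover the spread between genes, whose shares ran from 3.26 to 51.5%. Leaving out each gene in turn gave 39 to 47 TEAD1 peaks, 20 to 26 TEAD4 peaks and 0 to 1 HA-YAP5SA peaks. The share of TEAD1 peaks with TEAD4 was then 44.2 to 50%, that with HA-YAP5SA 0 to 2.56%, and that of TEAD4 peaks with HA-YAP5SA 0 to 5.00%, the zeros being without FOSB. Median percentiles were 53.5 to 67.1 for TEAD1 and 51.9 to 53.7 for TEAD4. No paired analysis was possible because each antibody had 1 library and no result came from a test. Unknown depth limits every count of 0.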

Other observations

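An HA-YAP5SA peak lay beyond the JUN window on each side. One lay 124 kb upstream (chr1:59374157-59374330, score 108, percentile 44.3) and one 155 kb downstream (chr1:59094604-59094824, score 114, percentile 50.3), and each overlapped a TEAD1 and a TEAD4 peak. These were the only HA-YAP5SA peaks between 100 and 200 kb from the start of any of the 8 genes, and no YAP or TAZ peak lay in that range. The range is as long as 8 tiles, which would hold 0.448 HA-YAP5SA peaks at the mean number per tile. The difference was not tested.

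Near the 100 kb limit, the outermost TEAD1 peaks counted were those at 99.4 kb (JUN), 98.2 kb (ATF3), 97.7 kb (JUNB) and 95.7 kb (FOS), with scores of 475, 116, 108 and 140. The first ones not counted lay at 102 kb (ATF3, score 209), 106 kb (FOSL1, score 141) and 108 kb (FOSL1, score 140). A TEAD4 peak without TEAD1 lay 102 kb upstream of FOS (score 135). The TEAD4 peaks beyond the FOSL1 limit had scores of 92.7, on a TEAD1 peak, and 105, without TEAD1.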
